A study of Mus musculus with 2 samples.

Results

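The glucocorticoid receptor, a set of its target genes and the metallothionein pair were followed in liver sections of 1 AEG-1-WT mouse (WT) and 1 AEG-1-C75S mouse (C75S). The set holds 8 genes, chosen by symbol: the receptor gene Nr3c1, the targets Tsc22d3, Fkbp5, Sgk1, Zbtb16 and Klf9, and Mt1 and Mt2. The choice was made with earlier results of these data known. All 8 were among the 19465 genes of the count tables, and all 8 had at least 50 UMIs over both sections, the minimum for a gene to be compared. Both animals were naive female littermates of 8 weeks from a mating of AEG-1-C75S heterozygotes. In C75S mice, made by CRISPR/Cas9, the cysteine of AEG-1 (gene Mtdh) that normally carries palmitate is replaced by serine in the germline, so every cell type carries the change. Neither animal was treated. RNA was read on 1 section of 5 μm per animal by 10x Visium for fixed, paraffin-embedded tissue, which counts pairs of ligated probes by unique molecular identifiers (UMIs) on the barcoded spots of a slide.

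Cortisol and corticosterone enter cells and bind the glucocorticoid receptor, which is held ready by heat shock chaperones, moves to the nucleus and changes transcription at glucocorticoid response elements or through other DNA-bound factors. In liver the receptor is known for driving amino acid breakdown and gluconeogenesis, and genes such as Tsc22d3, Fkbp5, Zbtb16 and Klf9 are widely used as readouts of its activity. Metallothioneins are small cysteine-rich proteins that bind zinc and copper, and their genes respond to metals through the factor MTF1 at metal response elements, and also to glucocorticoids and to interleukin 6.

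Spots with more than 50000 UMIs were left out, which removed 7 spots of WT and 4 of C75S. This left 2309 spots and 42246988 UMIs in WT, where the median spot had 16830 UMIs, and 2163 spots and 41674347 UMIs in C75S, where it had 18808. The libraries share 1896 spot barcodes, which are positions printed on every slide and do not mark shared cells. The hepatocyte markers Alb, Apoa1, Ttr and Cps1 together made up 170985 CPM (UMIs scaled to a total of 1000000 per section) in WT and 175493 in C75S, as the label liver implies. With 1 animal per genotype there was no replicate and no test between the genotypes was possible, so each ratio compares 2 libraries, and intervals (95%) cover counting error only. A gene was called higher or lower where its log2 ratio was at least 0.5 in size and its interval left out 0. A spot holds several cells, so fewer cells that express a gene and less RNA per cell cannot be told apart.

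The sequences around the metallothionein genes come first, since this pair had the largest differences between the sections among the 8 genes. Mt2 (chr8:94172618-94173567) and Mt1 (chr8:94178883-94180327) lie next to each other on the plus strand in GRCm38.p6. The coding sequences of both, from the GENCODE M21 transcripts with 3 exons each, have 186 bases. They are shown with the bases that differ between them in capitals. Where the probes bind on the transcripts was not examined.
Mt1 coding sequence: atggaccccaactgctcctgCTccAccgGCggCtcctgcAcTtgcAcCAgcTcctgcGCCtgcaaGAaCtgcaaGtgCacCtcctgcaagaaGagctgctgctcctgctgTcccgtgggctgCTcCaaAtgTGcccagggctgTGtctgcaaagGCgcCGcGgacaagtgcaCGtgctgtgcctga
Mt2 coding sequence: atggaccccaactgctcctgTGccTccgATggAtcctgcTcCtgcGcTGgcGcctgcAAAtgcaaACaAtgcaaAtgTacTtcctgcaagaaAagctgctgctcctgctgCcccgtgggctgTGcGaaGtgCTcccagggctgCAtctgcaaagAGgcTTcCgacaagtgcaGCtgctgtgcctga
They were identical at 148 positions and differed at 38, an identity of 79.6%, and each encodes 61 residues of which 20 are cysteines. The longest run of identical bases between the full transcripts was 20. The probe sequences were not used here, and whether any probe of one gene also captured the other was not tested.

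The 250 bases before the RefSeq start of each gene are shown with matches to TGCNCNC on either strand in capitals. This is a loose form of the metal response element core, in which the base after TGC is not held to A or G. In Mt2, TGCTCTC and GGGAGCA, which reads TGCTCCC on the other strand, have T at that base.
Mt1, chr8:94178839-94179088, plus strand: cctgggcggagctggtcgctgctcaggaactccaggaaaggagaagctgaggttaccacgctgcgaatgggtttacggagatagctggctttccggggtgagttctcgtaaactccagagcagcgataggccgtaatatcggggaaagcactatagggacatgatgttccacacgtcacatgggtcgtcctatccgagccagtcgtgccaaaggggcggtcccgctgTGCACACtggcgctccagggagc
Mt2, chr8:94172368-94172617, plus strand: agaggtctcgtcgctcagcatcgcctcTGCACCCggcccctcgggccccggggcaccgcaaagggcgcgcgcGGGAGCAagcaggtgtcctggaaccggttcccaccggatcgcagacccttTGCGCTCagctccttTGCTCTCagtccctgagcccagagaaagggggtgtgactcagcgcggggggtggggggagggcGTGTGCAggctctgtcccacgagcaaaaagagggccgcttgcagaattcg
The start used for Mt1 is that of the RefSeq window and lies inside the gene span given above, which begins further upstream, while the start used for Mt2 is the first base of its span. The windows are therefore not placed alike in the gene spans, and their matches are given for each window and not as a contrast. In the transcripts above, coding begins at 94179311 in Mt1 and 94172848 in Mt2, beyond the windows searched. The bases between window and coding start were not searched, so further matches there are not counted. The Mt2 stretch held 5 matches and the Mt1 stretch 1. Over the window of 300 bases that runs on to 50 bases after the start, Mt2 had 6 matches and Mt1 had 3. The searched pattern is short and loose. Of 32851 such windows, 51.0% held at least 1 match, while 7.10% held at least 3 and 0.225% held at least 6. Shares for the stricter form, with A or G after TGC, were not computed. Neither window held the full glucocorticoid response element that was searched, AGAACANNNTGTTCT, or a single arm of it, TGTTCT. Windows were given for 6 of the 8 genes, with 6 starts of Sgk1 and 3 of Tsc22d3. Of the 32851 windows, 3 held the full element, or 0.00913%, and 1 of these belongs to Sgk1.
Sgk1, chr10:21993671-21993745, plus strand, element in capitals: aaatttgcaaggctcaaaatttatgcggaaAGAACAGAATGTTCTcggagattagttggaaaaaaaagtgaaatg
The element of Sgk1 lies before an internal start of the gene (chr10:21882184-21999903). The single arm, on either strand, was present in 19.0% of all windows and in 3 windows of Sgk1 and 1 of Tsc22d3, and in none of Fkbp5 or Klf9. These matches describe letters in the windows and not binding.

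Nr3c1 itself was close in both sections. It had 3863 UMIs in WT (91.4 CPM, 88.6 to 94.4) and 3548 in C75S (85.1 CPM, 82.4 to 88.0). The log2 ratio of the sections, C75S over WT, was -0.10 (-0.17 to -0.04), under the size for a call and close to the median of -0.05 over the 11998 genes compared. Per spot, the receptor gene also ran alike, with a median of 78.4 CPM in WT and 77.9 in C75S.

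The receptor's targets did not move in one direction. Of the 8 genes, 3 were called lower in C75S (Tsc22d3, Mt1 and Mt2), 1 was called higher (Zbtb16) and 4 were neither, where 6.33% of the 11998 genes were called lower and 2.86% higher. The median of the 8 log2 ratios was -0.11. Because the 8 genes were chosen with earlier results of these data known, their counts cannot be weighed against the shares over all genes.

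Tsc22d3, which encodes the leucine zipper protein GILZ that mediates anti-inflammatory actions of glucocorticoids, was lower in C75S. It had 2864 UMIs in WT (67.8 CPM, 65.3 to 70.3) and 1766 in C75S (42.4 CPM, 40.4 to 44.4). The log2 ratio was -0.68 (-0.76 to -0.59), a level 1.60-fold lower. Of all genes compared, 3.80% had a lower ratio.

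Zbtb16, a zinc finger transcription repressor also known as PLZF, went the other way. It had 366 UMIs in WT (8.66 CPM, 7.80 to 9.60) and 653 in C75S (15.7 CPM, 14.5 to 16.9). The log2 ratio was 0.85 (0.67 to 1.04), a level 1.81-fold higher, and 0.908% of all genes had a higher ratio. Its counts were the sparsest of the set, with a UMI in 13.7% of WT spots and in 25.6% of C75S spots, and in 2.52% and 4.77% after each spot was thinned to 3000 UMIs.

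Fkbp5 encodes the co-chaperone FKBP51, which lowers the affinity of the receptor for its hormone and is itself induced by it. It had 2234 UMIs in WT (52.9 CPM, 50.7 to 55.1) and 2854 in C75S (68.5 CPM, 66.0 to 71.0). The log2 ratio of 0.37 (0.29 to 0.45) left out 0 but was under the size for a call. After thinning it was 0.17 (-0.03 to 0.37), an interval that held 0. Tsc22d3 and Fkbp5, both common readouts of the receptor, therefore had ratios of opposite sign in the same pair of sections, though only Tsc22d3 was called.

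Sgk1, a kinase that regulates ion channels and transporters, and Klf9, a Krüppel-like transcription factor, were not called. Sgk1 had 1443 UMIs in WT (34.2 CPM) and 1304 in C75S (31.3 CPM), a log2 ratio of -0.13 (-0.24 to -0.02). Klf9 had 3066 UMIs (72.6 CPM) and 3120 (74.9 CPM), a log2 ratio of 0.04 (-0.03 to 0.12). The interval of Klf9 held 0 with this scaling, but not under every setting tried. With the ratio of the median gene subtracted, the ratio of Klf9 was 0.10 (0.03 to 0.17). After thinning to 3000 UMIs it was 0.11 (-0.07 to 0.29).

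**Figure D1:**
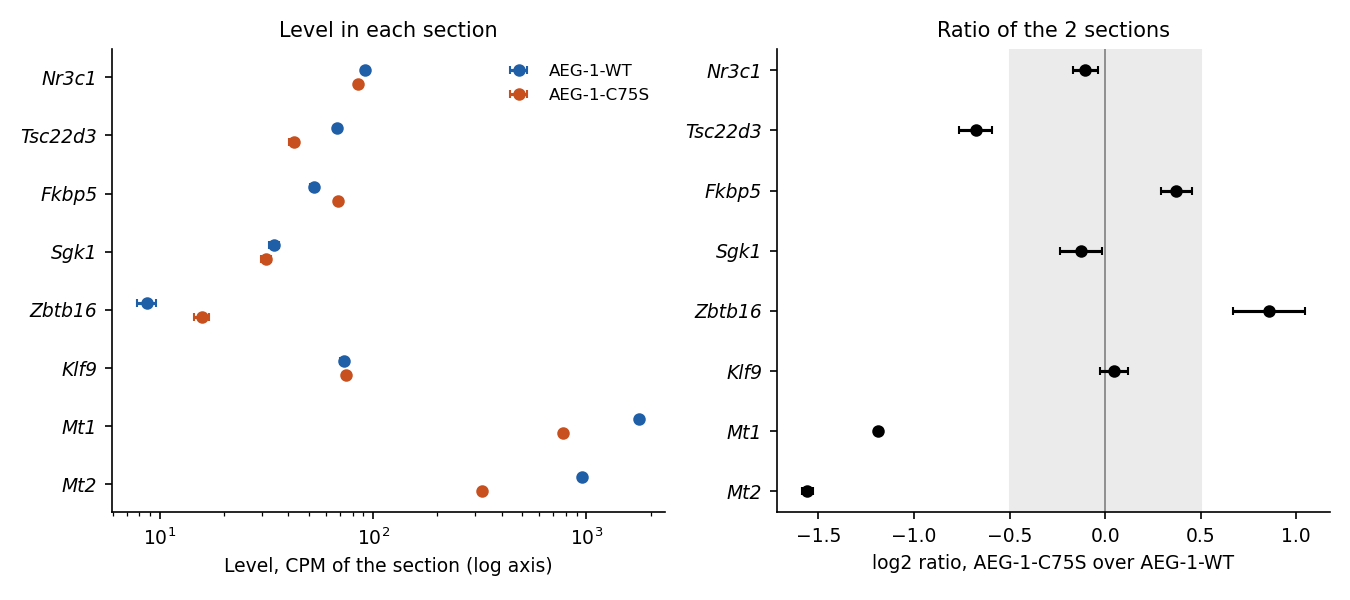
Level of each gene in the WT and C75S section (left, CPM on a log axis, bars are exact 95% Poisson intervals) and the log2 ratio of the sections (right, bars are 95% intervals from the pair of UMI sums, grey band is the range under 0.5 in size). Mt1, Mt2 and Tsc22d3 lie left of the band, Zbtb16 lies right of it and the other 4 genes lie inside; levels of different genes are not comparable.

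The metallothioneins had the largest differences of the set. Mt1 had 74661 UMIs in WT (1767 CPM, 1755 to 1780) and 32337 in C75S (776 CPM, 768 to 784). Its log2 ratio was -1.19 (-1.21 to -1.17), a level 2.28-fold lower, and 0.900% of the genes compared had a lower ratio. Mt2 had 40331 UMIs in WT (955 CPM, 945 to 964) and 13511 in C75S (324 CPM, 319 to 330). Its log2 ratio was -1.56 (-1.59 to -1.53), a level 2.94-fold lower, with 0.433% of the genes below it.

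The fold was larger for Mt2 than for Mt1. The difference between their log2 ratios was -0.37 (-0.40 to -0.34), and the UMIs of Mt2 per UMI of Mt1 went from 0.540 in WT to 0.418 in C75S. A ratio of the pair within a section does not depend on the total used for scaling.

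Around the pair on chromosome 8, within 100 kb, the annotation places Mt4, Mt3, Bbs2 and Nup93 among the genes of the tables. Mt3, a metallothionein known from brain, and Mt4, one known from stratified epithelia, had 0 UMIs in both sections. With an upper limit of 3 UMIs set for a count of 0, this allows 0.0710 CPM in WT and 0.0720 CPM in C75S. Bbs2, a gene of the cilium, had 162 and 119 UMIs, a log2 ratio of -0.43 (-0.78 to -0.08), and Nup93, of the nuclear pore, had 222 and 290 UMIs, a ratio of 0.41 (0.15 to 0.66). Neither flanking gene was called, and their ratios had opposite signs. These neighbours were looked at after the values of Mt1 and Mt2 were known.

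The lower level of Mt1 and Mt2 ran through nearly all of the C75S section. Per spot, Mt1 had a median of 1744 CPM in WT, with 5% of spots under 969 and 5% over 2656, and a median of 753 CPM in C75S, with 5% under 369 and 5% over 1198. Mt2 had a median of 933 CPM (403 to 1586) in WT and 304 CPM (84.3 to 622) in C75S over the same percentiles. Only 0.416% of C75S spots had more Mt1 than the median WT spot, and 0.509% had more Mt2. After every spot was thinned to 3000 UMIs these shares were 3.24% and 2.27%, with a median of 5 and 2 UMIs of Mt1 per spot and 3 and 1 of Mt2. Spots of 1 section are not replicates, so the distributions show how evenly the level was spread in each animal.

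**Figure D2:**
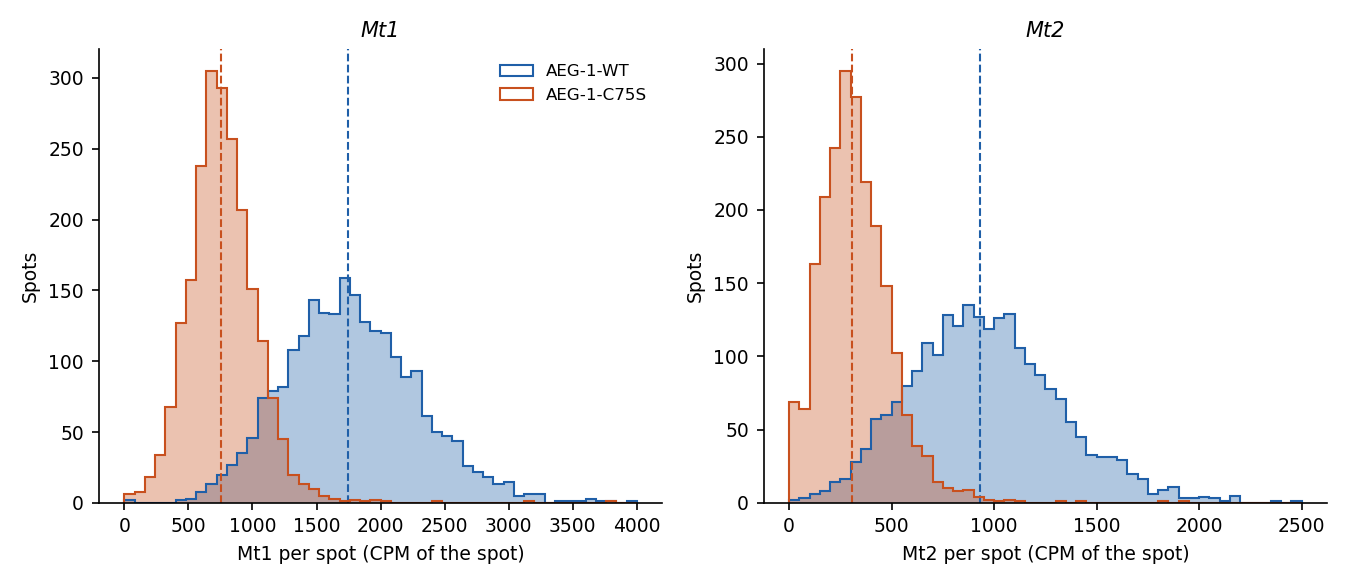
Number of spots by level of Mt1 (left) and Mt2 (right), in CPM of the spot, for WT (blue) and C75S (orange), with dashed lines at the medians. The Mt1 medians are 1744 and 753 CPM and the Mt2 medians 933 and 304 CPM, and the distributions overlap only at their flanks; 1 WT spot over 4000 CPM of Mt1 is drawn at the edge.

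Mt1 and Mt2 varied together from spot to spot more in WT than in C75S. On a log2 scale of UMIs per 10000, Pearson's r over spots was 0.54 in WT (2309 spots) and 0.15 in C75S (2163 spots), and within single bins along the periportal to pericentral axis it ran from 0.21 to 0.51 and from -0.03 to 0.21. The spots of a section share a library, and r falls as counts fall. A spot held on average 32.3 UMIs of Mt1 and 17.5 of Mt2 in WT and 15.0 and 6.25 in C75S. With the Mt1 and Mt2 UMIs of the WT spots thinned to the C75S level, a setting added after the data were seen, r in WT was 0.32. With all spots thinned to 3000 UMIs, r was 0.19 in WT and 0.05 in C75S. That thinning left unlike counts, with means of 5.24 UMIs of Mt1 and 2.83 of Mt2 in WT and 2.32 and 0.98 in C75S. The other 27 pairs of members had r between -0.05 and 0.06 in both sections, too weak in such sparse counts to be read, and the r of each member with the total UMIs of the spot was between 0.00 and 0.14.

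**Figure D3:**
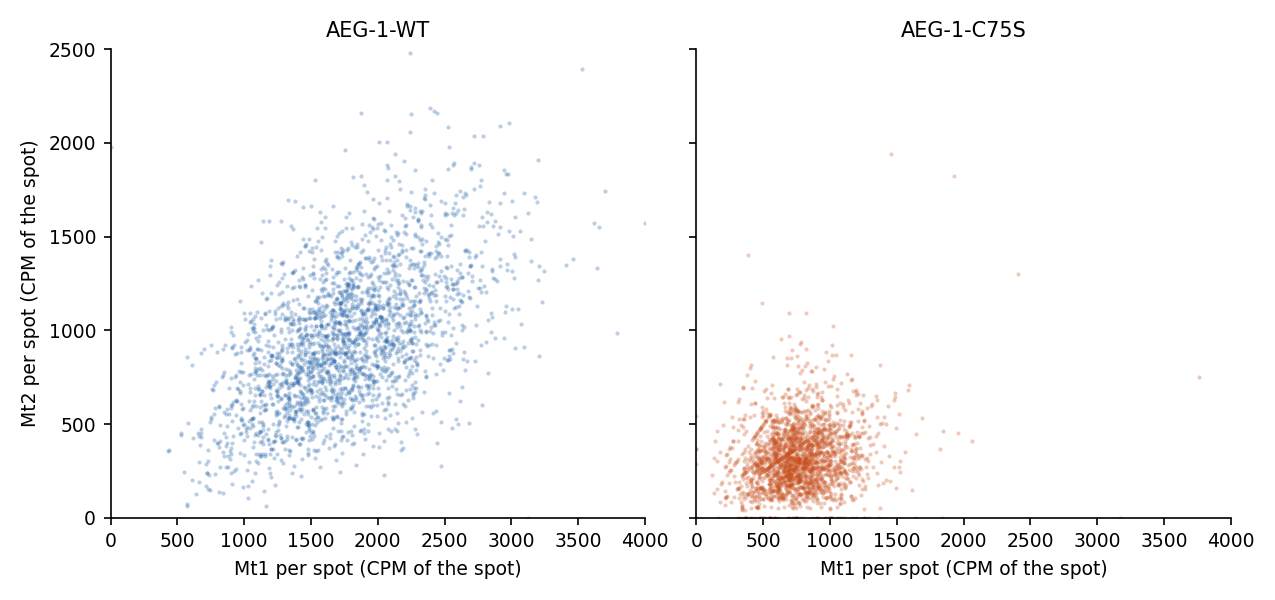
Mt2 against Mt1 in each spot, both in CPM of the spot, in WT (left) and C75S (right), on the same axes. The WT spots form a slanted cloud (r = 0.54 on the log2 scale) and most C75S spots a compact one near the origin (r = 0.15).

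By the same measure, the genes most like Mt1 over the spots of both sections, among 4354 genes with at least 1000 UMIs in each section, were Fgb, Fgg, Ahsg, Igfbp2 and Fga. Their r with Mt1 was 0.42, 0.30, 0.26, 0.32 and 0.42 in WT and 0.27, 0.26, 0.25, 0.22 and 0.20 in C75S, in that order. Fgb, Fgg and Fga encode the chains of fibrinogen, Ahsg encodes fetuin A and Igfbp2 a carrier of insulin-like growth factors, all proteins that hepatocytes secrete. Between the sections these genes did not go the way of Mt1, with log2 ratios of 0.47 for Fgb, 0.52 for Fgg, 0.28 for Ahsg, 1.15 for Igfbp2 and 0.55 for Fga. For Fkbp5 the genes most like it were Gls2, Ftcd, Otc, Arg1 and Txndc15, and no gene reached an r of 0.09 in both sections.

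The position of the members along the lobule was read from 5 bins of equal numbers of spots in each section, ranked by the ratio of Cyp2f2, a periportal gene, to Cyp2e1, a pericentral gene, each with 1 UMI added. In WT, Mt1, Mt2 and Zbtb16 were lower in the most pericentral bin than in the most periportal one, and in C75S Mt2 was. Mt2 kept this call in WT under all 8 settings tried for the axis. Mt1 was near the limit, and its log2 ratio in WT was under the size for a call with 3 bins (-0.44), with bin limits shared by the sections (-0.46) and with thinned spots (-0.45). Zbtb16 was not called in WT with 10 bins (-0.65, -1.44 to 0.11), without the portal tract marker spots (-0.54, -1.13 to 0.03) or with thinned spots (-0.35). No member was called higher in the pericentral bin of either section. Of 9931 genes compared in WT, 7.37% were called higher in the pericentral bin and 4% lower, and of 9922 in C75S 6.41% were called higher and 2.97% lower.

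Mt1 went from 1934 CPM in the most periportal bin of WT through 2014, 1888 and 1617 to 1360 CPM in the most pericentral one. In C75S the same bins held 783, 837, 794, 761 and 702 CPM. The log2 ratio of the pericentral over the periportal bin was -0.51 (-0.54 to -0.47) in WT and -0.16 (-0.21 to -0.11) in C75S. The slope of Mt1 was thus shallower in C75S, by 0.35 (0.29 to 0.41), which is under the size for a call.

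Mt2 went from 1089 CPM through 1121, 1047 and 825 to 676 CPM in WT, and from 378 through 371, 331 and 287 to 253 CPM in C75S. Its log2 ratio of the end bins was -0.69 (-0.74 to -0.64) in WT and -0.58 (-0.66 to -0.50) in C75S, a difference of 0.11 (0.02 to 0.20). The slope of Mt2 was therefore closer in both sections than that of Mt1. No member had a difference in slope that was called, and over 10909 genes 2.22% were called with a positive difference and 2.08% with a negative one. The genes that define the axis also ran less steeply in C75S: Cyp2f2 went from 2444 to 370 CPM in WT and from 2773 to 569 CPM in C75S, and Cyp2e1 from 2154 to 13180 CPM and from 2300 to 12018 CPM. The part of this in the slope of Mt1 was not tested.

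Set against each other bin by bin, the sections kept the sign of the whole-section ratio for every member except Klf9, whether called or not. From the periportal to the pericentral bin the log2 ratio of C75S over WT was -1.31, -1.27, -1.25, -1.09 and -0.95 for Mt1, and -1.53, -1.59, -1.66, -1.52 and -1.42 for Mt2. For Tsc22d3 it ran between -0.77 and -0.52, for Zbtb16 between 0.49 and 1.38 and for Fkbp5 between 0.25 and 0.44. The CPM ranges over the bins lay apart between the sections for these 5 genes and overlapped for Nr3c1, Sgk1 and Klf9. The bins are parts of the same 2 libraries, so this adds no evidence to the whole-section ratios. The share of all genes with ranges apart was not computed.

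The receptor gene was nearly flat along the lobule. Nr3c1 lay between 87.1 and 96.0 CPM over the bins of WT and between 82.6 and 91.1 CPM in C75S. Tsc22d3 lay between 64.0 and 75.5 CPM and between 39.1 and 44.6 CPM, with log2 ratios of the end bins of 0.02 and 0.10, and both intervals held 0. Zbtb16 went from 9.55 CPM in the periportal to 5.55 CPM in the pericentral bin of WT, a log2 ratio of -0.78 (-1.35 to -0.23), and from 18.4 to 14.4 CPM in C75S, a ratio of -0.35 (-0.71 to 0.00).

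Fkbp5 had a log2 ratio of the end bins of -0.13 (-0.33 to 0.07) in WT and -0.20 (-0.37 to -0.03) in C75S. Klf9 ran from 67.4 to 82.9 CPM in WT, a ratio of 0.30 (0.13 to 0.47), against 0.07 (-0.09 to 0.23) in C75S. For Sgk1 the ratio was 0.06 (-0.19 to 0.31) in WT and 0.29 (0.03 to 0.56) in C75S. None of these 3 genes was called.

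**Figure D4:**
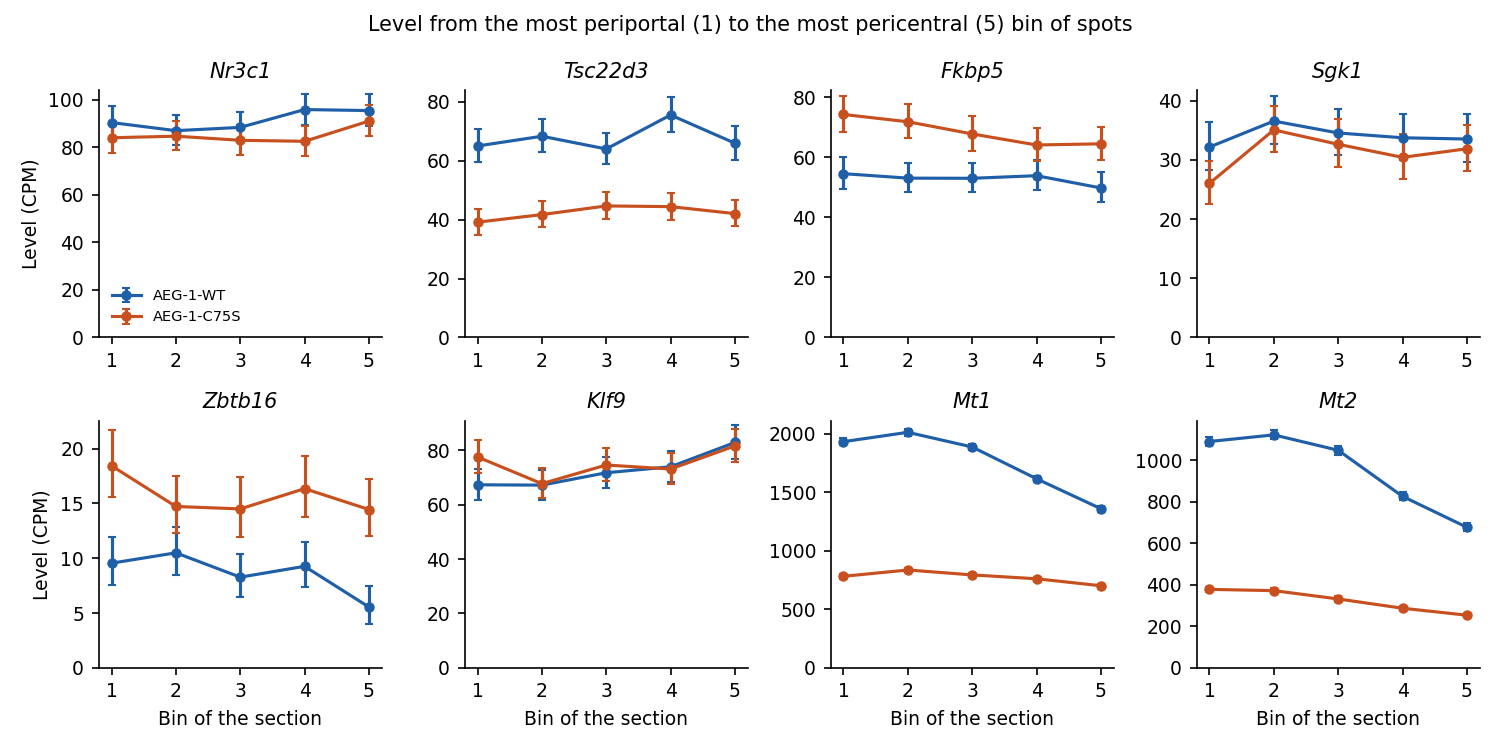
Level of each gene (CPM, axes from 0) in the bins of each section, from the most periportal (1) to the most pericentral (5), with exact 95% Poisson intervals. Mt1 runs from 1934 to 1360 CPM in WT and from 783 to 702 CPM in C75S, and the points of the sections stay apart in every bin for Tsc22d3, Fkbp5, Zbtb16, Mt1 and Mt2, while the intervals overlap for Fkbp5 in bin 4 and for Zbtb16 in bin 2.

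Markers of other cells also differed between the sections, where 2.86% of all genes compared were called higher and 6.33% lower. All 5 markers of portal connective tissue (Mgp, Dpt, Col1a1, Col3a1 and Gsn) were lower in C75S, with a summed level of 163 CPM in WT and 78.4 CPM in C75S, 2 of 5 cholangiocyte markers were lower (129 and 96.6 CPM in sum), and 1 of 6 Kupffer cell markers, Marco, was higher (1096 and 1446 CPM in sum). Of the 3 red cell markers 2 were lower, at 611 and 404 CPM in sum. None of the 5 stellate cell, 5 endothelial or 5 lymphocyte markers was called. In the 5% of spots richest in cholangiocyte and portal connective tissue markers, 115 spots of WT, Zbtb16 was 18.0 CPM against 8.13 CPM in the other spots, a log2 ratio of 1.14 (0.64 to 1.62) from 41 UMIs. In the 108 such spots of C75S it was 17.4 against 15.6 CPM, a ratio of 0.16 (-0.40 to 0.67). Tsc22d3 was 86.8 against 66.7 CPM in the portal spots of WT, a ratio of 0.38 (0.16 to 0.59), and 48.3 against 42.1 CPM in those of C75S, a ratio of 0.20 (-0.12 to 0.51). Mt1 was within 0.13 and Mt2 within 0.12 on the log2 scale of the other spots in portal and Kupffer cell marker spots of both sections. In the spots of C75S richest in red cell markers the log2 ratio to the other spots was -0.69 (-1.27 to -0.16) for Sgk1, from 29 UMIs, 0.35 (0.09 to 0.59) for Klf9 and -0.21 (-0.36 to -0.07) for Mt2. In those of WT it was 0.20 (-0.13 to 0.51), 0.21 (-0.02 to 0.42) and -0.04 (-0.10 to 0.03), and all 3 intervals held 0. The red cell marker spots of C75S were shallow, with a median of 11408 UMIs against 19100 in the other spots.

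Without the portal tract marker spots the log2 ratio of the sections was -1.18 for Mt1, -1.56 for Mt2, -0.66 for Tsc22d3 and 0.94 for Zbtb16. In the spots that remained, the portal tract markers still differed, with a sum of 162 CPM in WT and 124 CPM in C75S. Across leaving out the spots richest in portal tract, Kupffer cell or red cell markers and the other settings tried, Mt1 ranged from -1.20 to -1.13, Mt2 from -1.58 to -1.50, Tsc22d3 from -0.69 to -0.62 and Zbtb16 from 0.79 to 0.94, its highest value without the portal tract spots. The part of these markers in the ratios was not tested.

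Other genes of the pathway were grouped by role, and paired CPM values give WT first and C75S second. The lists were written with earlier results of these data known. Beside the counts of every list stand the shares over all 11998 genes compared, 2.86% called higher and 6.33% called lower. The glucocorticoid targets beyond the members went both ways, with 8 of 21 called higher, 4 lower and 9 neither, and a median log2 ratio of 0.10. The largest rises among those with at least 200 UMIs were Igfbp1, a carrier of insulin-like growth factors (48.8 and 309 CPM, log2 ratio 2.66), Cdkn1a, a cell cycle inhibitor (3.15 and 10.4 CPM, 1.72), and Pdk4, a kinase that restrains glucose oxidation (4.31 and 13.5 CPM, 1.64). The largest falls were Tat, tyrosine aminotransferase (925 and 454 CPM, -1.03), Per1, a clock gene (35.4 and 17.5 CPM, -1.02), and Sds, serine dehydratase (123 and 69.9 CPM, -0.81). Tat, long used as the model of a glucocorticoid-induced liver enzyme, was thus called lower, as were Tsc22d3, Mt1 and Mt2. Zbtb16 was called higher, as were Pdk4 and Igfbp1. These calls rest on 1 ratio per gene, and whether these genes vary together was not tested.

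Of 9 genes for other receptors, steroid supply and cofactors, 1 was called lower and none higher, with a median of -0.27. This was Serpina6, the corticosteroid-binding globulin of plasma, with 402 CPM in WT and 269 CPM in C75S, a log2 ratio of -0.58 (-0.62 to -0.55). Hsd11b1, which regenerates active corticosterone inside hepatocytes, had 717 and 819 CPM, a ratio of 0.19 (0.17 to 0.22). None of 5 receptor chaperones was called, with a median of -0.22, and Fkbp4, the partner of the receptor that FKBP51 opposes, had 129 and 94.5 CPM, a ratio of -0.45 (-0.51 to -0.39). Hsd11b1 and Fkbp4 are named for their roles and were chosen after their values were seen.

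The zinc and copper genes stayed near the median of all genes. Of 16 compared, 1 was higher and none lower, with a median of -0.05. The exception was Slc30a10, a manganese and zinc exporter, at 16.1 and 26.0 CPM, a log2 ratio of 0.69 (0.55 to 0.83). Mtf1, the metal sensor that drives metallothionein genes, had 17.0 and 15.2 CPM, a ratio of -0.16 (-0.32 to -0.01), and Slc30a1, a zinc exporter that is also a target of Mtf1, had 66.3 and 66.1 CPM, a ratio of 0.00 (-0.08 to 0.07). Mtf1 and Slc30a1 were also chosen with their values known. These are RNA levels, the activity of the MTF1 protein was not measured, and its part in the ratios of Mt1 and Mt2 was not tested.

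Of 8 genes of the interleukin 6 and acute phase response, 2 were called higher and none lower, with a median of 0.25. These were Orm2, an acute phase glycoprotein (39.1 and 87.1 CPM, log2 ratio 1.16), and Socs3, a feedback inhibitor of the pathway (15.5 and 23.6 CPM, 0.61). Across all 5 lists, Mt1 and Mt2 had lower ratios than every gene with at least 200 UMIs.

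**Figure D5:**
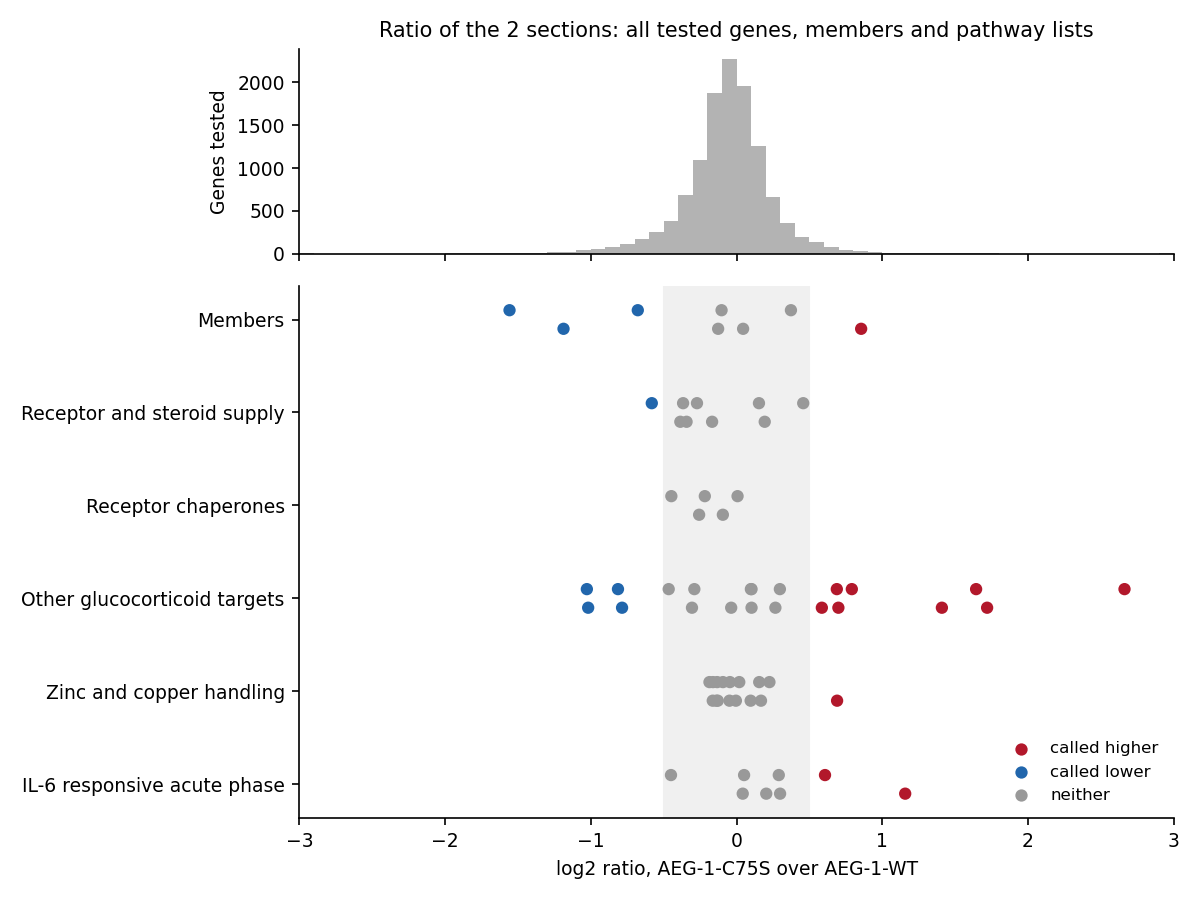
Number of genes by log2 ratio of C75S over WT (top, 11998 genes, ratios beyond 3 in size drawn in the end bins) and the ratio of each member and each compared gene of 5 pathway lists (bottom, red called higher, blue called lower, grey neither, small vertical offsets only separate points). The members and the other glucocorticoid targets spread to both sides, while 15 of 16 zinc and copper genes lie inside the band of 0.5.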

How the data were processed

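RNA of 1 liver section each from an AEG-1-WT and an AEG-1-C75S mouse was measured by 10x Visium. The deposited tables hold raw UMI counts, which the authors made with Space Ranger 2.0.1 (mm10) and did not normalize. The tables held 0 columns of other samples. For the 11 repeated symbols only the first entry counted. Genes, barcodes and counts were read with scipy 1.17.1, pandas 2.3.3 and numpy 2.4.6 under python 3.11.15. Spots with more than 50000 UMIs were left out, and UMIs were summed per section or bin and divided by the total (CPM).

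Intervals at 95% are exact Poisson for sums, exact binomial (Clopper-Pearson) for ratios of 2 sums and normal on the log scale for differences of 2 log2 ratios. UMIs count molecules, and the intervals cover counting error only. Genes with at least 50 UMIs were compared. With 1 section per genotype there was no test. TMM factors came from edgeR 4.0.16 (R 4.3.3). The spots left after thinning numbered all but 4 of AEG-1-WT and all but 3 of AEG-1-C75S.

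The members and lists were chosen with earlier results of these data known. Genes were named by a rule: all members, the 5 genes most like Mt1 and like Fkbp5 over spots, and from each pathway list up to 3 called rises and 3 called falls with at least 200 UMIs. Of 113 list genes, 6 were not analysed here. The chaperone list held 8 genes, of which 5 were analysed. The interleukin 6 and acute phase list held 10, of which 8 were analysed, and the red cell list 4, of which 3 were. Promoter windows are from RefSeq (GRCm38.p6). The planned protein comparison of Mt1 and Mt2 was made on their coding sequences instead, since no protein table was used here. Spot coordinates were not used here.

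Alternatives for the section ratios were no spot filter, a filter of 100 to 7000 genes, equal weight per spot or bin, TMM, leaving the 20 most abundant genes out of the totals, subtracting the median gene's ratio, spots matched on UMIs in 10 bins, thinning to 3000 UMIs, no portal tract, Kupffer cell or red cell marker spots, minimums of 10 and 200 UMIs and call sizes of 0.25 and 1. For the axis they were 3 or 10 bins in place of 5, shared limits of the bins and the ratio of Hal to Oat.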

Additional observations from a re-analysis of the deposited data

How the results depend on the processing

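No paired analysis was possible because there was 1 section per genotype. Over the 12 alternatives for the section ratios, each of the 8 members kept its sign and its side of the call, and the median gene moved by at most 0.06 on the log2 scale. With a call size of 0.25 Fkbp5 would also be called higher, and with a size of 1 Mt1 and Mt2 alone would be called. The shares of all genes called at these sizes were not computed, so these calls cannot be weighed against them. Along the axis, with 10 bins in place of 5, 1 member (Sgk1, log2 ratio 0.74) was called higher in the pericentral end of C75S, 2 members were called lower there, and 1 (Sgk1, 0.73) had a called difference in slope. With the ratio of Hal to Oat, 1 member was called higher in the pericentral bin of C75S and 1 had a called difference in slope (Sgk1, 0.53). The 3 members called lower in the pericentral bin of WT became 2 with 3 bins or shared limits (without Mt1), 2 with 10 bins or without portal tract marker spots (without Zbtb16), and 1, Mt2, with spots thinned to 3000 UMIs. The difference in slope of Mt1 ranged from 0.28 to 0.44 over 8 alternatives, and that of Mt2 from -0.14 (thinned) to 0.16. The cause of these changes was not tested, and the shares of all genes called under these alternatives for the axis were not computed. Depth limits Zbtb16 most, with 44 UMIs in the pericentral bin of WT.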
